A study of Mus musculus with 15 samples.

Results

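The GADD45 family of the mouse has 3 genes, Gadd45a, Gadd45b and Gadd45g, and they were taken by symbol from tables that list 55291 genes. They were chosen by their RNA levels in culture, which parted between pancreatic cancer cells given the glutamine (Gln) antagonist DON and cells deprived of Gln, so the values of these 3 genes in the cultures are given as a description without a test. The tumors played no part in the choice, and tests of the 3 genes are given there only.

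GADD45 proteins are small, acidic and mostly nuclear, have no known enzymatic activity and act by binding other proteins. They bind and activate the kinase MAP3K4, which feeds the p38 and JNK pathways, and they also bind PCNA, p21 and the CDK1-cyclin B1 complex, which links them to cell cycle arrest and DNA repair. Gadd45a is best known as a gene induced by DNA damage through p53 and by the integrated stress response. Gadd45b is known as a target of NF-kB and TGF-beta signaling that can bind the JNK kinase MKK7, and Gadd45g as a gene induced by cytokines and by cell stress.

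Bulk RNA-seq was run on HY19636, a single murine line of pancreatic ductal adenocarcinoma (PDAC) isolated from tumors of genetically engineered C57BL/6 mice with p53 L/+ and Ptf1a-Cre alleles, Cre being driven in the pancreatic lineage. All samples, controls included, are labelled p53 mut. The 9 culture libraries were 3 of control cells, 3 of cells given DON at 25 µM for 24 h and 3 of cells left without Gln for 24 h (Gln-free cells), grown in DMEM with 10% serum per the labels. The 6 tumor libraries came from the same line grown in the pancreata of B6J mice, female and 8 to 10 weeks old, 3 given vehicle and 3 given DRP-104, a prodrug of DON. DRP-104 was dosed at 3 mg/kg daily in 2 cycles of 5 days on and 2 days off, with tumors collected at day 21. Labels do not say whether the cultures were separate, so the spread between culture libraries may be technical. Control columns of the culture tables carry a vehicle heading in place of the control samples' titles, and were matched to the control group but not to single samples.

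Depth was 25.2 to 48.2 M reads in culture and 16.3 to 20.7 M in tumors, and the 3 genes had 239 to 8892 reads in each library. A read may not be the same unit in culture and in tumors, so these depths may not compare directly. In the cultures, all 9 epithelial markers were present in control cells at a mean normalized count of at least 10, while the islet hormones Ins1, Ins2, Gcg, Sst and Iapp and the T cell genes Cd3d, Cd3e, Cd3g and Cd4 were at 0 in all 9 libraries. The macrophage genes Adgre1, C1qb, C1qc and Lyz2 and the fibroblast genes Col1a2, Dcn and Lum were also at 0. Other genes of these lists had reads. The 7 fibroblast markers summed to 471 to 630 jointly scaled counts in control, 121 to 157 in DON and 1076 to 1123 in Gln-free cells, an order also seen for Gadd45g. Of these 7, only 2 had a mean of at least 10 in control cells, and only 1 in DON and in Gln-free cells. The sum thus rests on few genes and does not stand for the list. The 8 macrophage markers summed to 2031 to 2762, 1156 to 1286 and 2260 to 2303, and the 7 acinar markers to 53.7 to 65.9, 235 to 423 and 14.8 to 36.5. A mean of at least 10 was reached by 2 macrophage markers in each group, and by 1, 3 and 1 acinar markers. The summed epithelial markers were 403324 to 512394 normalized counts in control cells, 121761 to 129233 in DON cells and 168399 to 184713 in Gln-free cells, so both treated groups lay below controls in this list. The part of these shifts in the GADD45 values was not tested.

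The promoters are shown because the 3 genes parted in culture and their start regions share some letters and not others. The sequences are from RefSeq (GRCm38.p6), 5′ to 3′ on the gene's strand, and run from 250 bases before to 50 bases after the annotated start. Capitals mark matches to 5 motifs: CACGTG (E box), ATTTGCAT (octamer), TTGCATCA (a composite of C/EBP and ATF letters, as in genes bound by ATF4 and CHOP), CCAAT and TATAAA. Gadd45a lies on the minus strand at chr6:67037358-67037657, Gadd45b on the plus strand at chr10:80929841-80930140 and Gadd45g on the plus strand at chr13:51846425-51846724.
Gadd45a: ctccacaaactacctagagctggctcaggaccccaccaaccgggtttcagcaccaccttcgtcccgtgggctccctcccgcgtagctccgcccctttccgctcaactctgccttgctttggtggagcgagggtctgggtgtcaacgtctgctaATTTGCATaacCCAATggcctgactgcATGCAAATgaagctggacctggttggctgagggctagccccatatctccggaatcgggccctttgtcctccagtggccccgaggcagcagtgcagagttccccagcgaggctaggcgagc
Gadd45b: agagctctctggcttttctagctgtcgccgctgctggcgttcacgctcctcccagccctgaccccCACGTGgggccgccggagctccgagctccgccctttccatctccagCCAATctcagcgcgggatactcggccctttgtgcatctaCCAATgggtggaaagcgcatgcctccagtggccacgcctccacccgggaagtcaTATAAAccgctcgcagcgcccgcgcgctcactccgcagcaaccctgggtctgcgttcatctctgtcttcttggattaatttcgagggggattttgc
Gadd45g: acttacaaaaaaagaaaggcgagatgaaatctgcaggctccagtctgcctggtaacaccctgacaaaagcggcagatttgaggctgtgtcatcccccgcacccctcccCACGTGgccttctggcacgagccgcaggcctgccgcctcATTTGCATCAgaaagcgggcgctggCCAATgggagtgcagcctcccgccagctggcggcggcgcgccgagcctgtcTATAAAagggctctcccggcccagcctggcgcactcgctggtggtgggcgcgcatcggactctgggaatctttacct

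All 3 promoters held CCAAT, which 37.4% of 32851 mouse promoters of this length hold on either strand. Gadd45a carried ATTTGCAT at bases -97 to -90 from its start and again on the opposite strand at -70 to -63, on either side of CCAAT at -86 to -82. Gadd45g carried ATTTGCAT at -103 to -96, overlapping TTGCATCA at -101 to -94, and Gadd45b carried neither. ATTTGCAT is in 1.74% of all promoters and TTGCATCA in 0.895%. CACGTG stood at -185 to -180 in Gadd45b and at -142 to -137 in Gadd45g, and is in 7.15% of promoters. TATAAA stood at -46 to -41 in Gadd45b and -27 to -22 in Gadd45g, against 13.6% of promoters, and was not in the Gadd45a window. GENCODE M21 starts Gadd45b further upstream than the RefSeq start used here, at 80930073, so distances in Gadd45b depend on the start taken. The CRE letters TGACGTCA (1.79% of promoters), the AP-1 letters TGANTCA (7.81%) and the NF-kB motif (4.51%) had no match in these 3 windows. The windows were alike in base composition, with 61.0% G and C and 14 CpG in Gadd45a, 62.0% and 24 CpG in Gadd45b, and 62.3% and 21 CpG in Gadd45g. These matches are a description of letters and not evidence of binding.

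**Figure D1:**
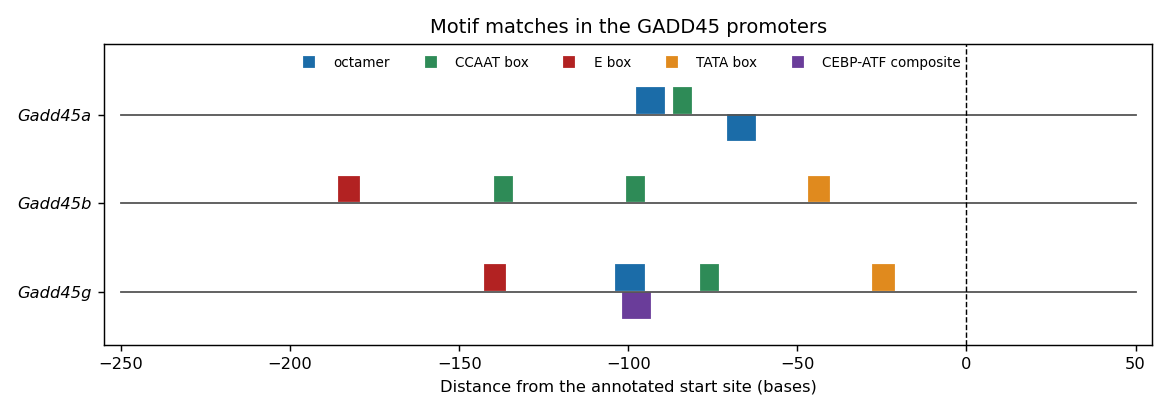
Motif matches in the 300 bases around the annotated start of each GADD45 gene, by distance from the start in bases (dashed line). Boxes above a gene's line are matches on its own strand; the box below the Gadd45a line is an octamer on the opposite strand, and the box below the Gadd45g line is the composite, on the gene's own strand, drawn lower because it overlaps the octamer.

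The authors' length-normalized tumor table has the coordinates of GENCODE M21 (GRCm38) for 72.2% of matched genes. In its gene models, Gadd45a (ENSMUSG00000036390) spans 67035096 to 67037457 of chromosome 6. Gadd45b (ENSMUSG00000015312) spans 80930091 to 80932204 of chromosome 10 and Gadd45g (ENSMUSG00000021453) spans 51846678 to 51848468 of chromosome 13. Each is a compact gene whose longest coding transcript has 4 exons in GENCODE M21. The gene models of the tumor table measure 1223, 1266 and 1071 bases. For Gadd45b, GENCODE M21 differs, with a start at 80930073 and a longest coding transcript of 1284 bases. Of the 3, Gadd45a has the most annotated transcripts, 7, with 3 of them coding. The first part of Gadd45a is overlapped on the plus strand by the noncoding gene E230016M11Rik, and since the use of strand is not known their reads cannot be told apart there. E230016M11Rik itself was low, at 7.03 to 29.6 jointly scaled counts in the 9 culture libraries and 30.4 to 45.1 normalized counts in the tumors.

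In control cells, Gadd45a, the classical DNA damage gene of the family, had 616, 512 and 631 normalized counts in the table of the DON comparison. In DON cells, it had 4320, 4421 and 4521 normalized counts. All DON libraries lay far above all control libraries, with group means of 4421 ± 100.3 (SD, n = 3) and 587 ± 65.0, a ratio of 7.54 and a log2 difference of 2.92. This difference ranked 171 from the highest among 13556 genes tested.

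Gadd45b, the NF-kB and TGF-beta responsive member, had a smaller difference of the same sign. It had 372, 372 and 288 normalized counts in control cells and 817, 736 and 697 in DON cells. The lowest DON library was still above the highest control library, and the means of 749.7 ± 61.0 and 344 ± 48.4 differed by 1.13 on the log2 scale, a ratio of 2.18. This difference ranked 1491 from the highest among the 13556 genes.

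Gadd45g, the cytokine-induced member, went the other way. It had 698, 663 and 635 normalized counts in control cells against 355, 392 and 362 in DON cells. Each DON library was below each control library, the means being 369 ± 19.6 and 665 ± 31.7, and the log2 difference was -0.85, with control cells 1.80-fold above DON cells. This difference ranked 2935 from the lowest among the 13556 genes. For all 3 genes, DON and control libraries did not overlap, as held for 71.9% of the genes tested, and limma (adjusted p under 0.05) called 68.1%. Since these values chose the genes, nothing is read from the count.

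Without Gln, all 3 genes were above control, in the reverse order. In this table the same 3 control libraries were scaled anew. Gadd45a had 581, 484 and 609 normalized counts in control cells and 1415, 1463 and 1630 in Gln-free cells. The Gln-free libraries were all above control, at 1503 ± 113 against 558 ± 65.7, a ratio of 2.69 and a log2 difference of 1.43.

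Gadd45b had 351, 352 and 278 normalized counts in control cells and 1741, 1525 and 1339 without Gln. The groups lay apart, and its Gln-free mean of 1535 ± 201 was 4.70 times the control mean of 327 ± 42.2, a log2 difference of 2.23.

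Gadd45g had 658, 626 and 612 normalized counts in control cells and 9287, 7815 and 7253 in Gln-free cells. The Gln-free libraries were all far above control and the difference was the largest of the family, 8118 ± 1050 against 632 ± 23.4, a ratio of 12.8 and a log2 difference of 3.67, which ranked 47 from the highest among 13390 genes. Gadd45b ranked 296 and Gadd45a 985. All 3 genes again had groups that did not overlap, against 73.6% of all genes tested, and limma called 69.4% of genes in this comparison. Both comparisons use the same control libraries, so they are not independent of each other.

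**Figure D2:**
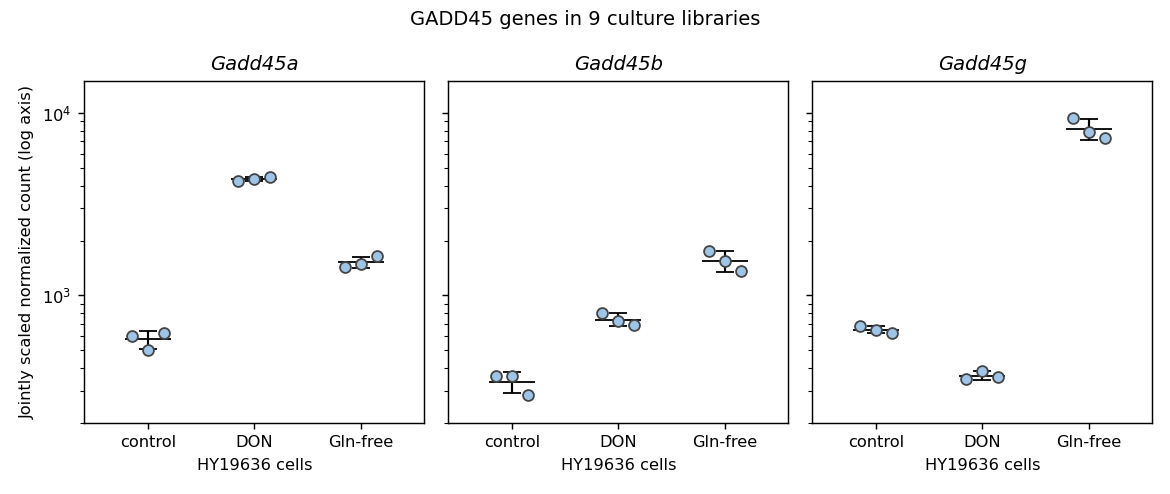
Normalized counts of the GADD45 genes in the 9 culture libraries, scaled together, on a log axis. Points are libraries, and the bar and whiskers are the mean and SD of 3 libraries. Gadd45a is highest in DON cells, Gadd45g in Gln-free cells, and Gadd45g alone lies below control in DON cells.

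To set DON directly against Gln withdrawal, the reads of the 9 culture libraries were scaled together. Gadd45a was at 4348 ± 102 jointly scaled counts in DON cells and 1520 ± 114 in Gln-free cells (n = 3 each), 2.86-fold higher with DON, a log2 difference of 1.52. Gadd45b was at 737 ± 59.2 in DON cells and 1553 ± 203 in Gln-free cells, a log2 difference of -1.07, with Gln-free cells 2.11-fold above DON cells. Gadd45g was at 363 ± 20.0 in DON cells and 8214 ± 1061 in Gln-free cells, a log2 difference of -4.49, with Gln-free cells 22.6-fold above DON cells. Among 13383 genes tested, only 6 had a lower log2 difference than Gadd45g. Gadd45a ranked 675 from the highest and Gadd45b 1436 from the lowest. Libraries of the DON and Gln-free groups did not overlap for any of the 3 genes, as for 72.2% of all genes, and limma called 63.6%.

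Levels of different genes can be compared once reads are divided by gene length, as reads per kb of gene scaled to the library total in M reads (RPKM). In control cells, Gadd45g stood at 18.8 ± 0.483 RPKM, Gadd45a at 14.5 ± 2.11 and Gadd45b at 8.18 ± 0.780 (SD, n = 3). The 3 ranges did not overlap, so Gadd45g was the most abundant member and Gadd45b the least. The family summed to 41.5 ± 2.00 RPKM.

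In DON cells the sum was 151.9 ± 2.23 RPKM and Gadd45a made up most of it. Gadd45a stood at 120.7 ± 3.51 RPKM, Gadd45b at 19.8 ± 1.50 and Gadd45g at 11.5 ± 0.601. The share of Gadd45a in the family was 78.4% to 80.6% in the 3 DON libraries against 31.4% to 38.6% in control libraries, and the share of Gadd45g was 7.34% to 8.01% against 44.3% to 46.5%. In DON cells Gadd45a lay above 98.2% to 98.3% of all genes by RPKM.

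In Gln-free cells the sum was 343 ± 33.8 RPKM and Gadd45g was the dominant member. Gadd45g stood at 259 ± 31.7 RPKM, above 99.2% to 99.4% of all genes, and held 73.9% to 77.4% of the family. Gadd45a, at 42.1 ± 3.52 RPKM, and Gadd45b, at 41.5 ± 5.11, had overlapping ranges. The family was thus higher in both treated groups and was led by a different gene in each. Fewer cells with a transcript and less transcript in each cell cannot be told apart in bulk RNA.

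**Figure D3:**
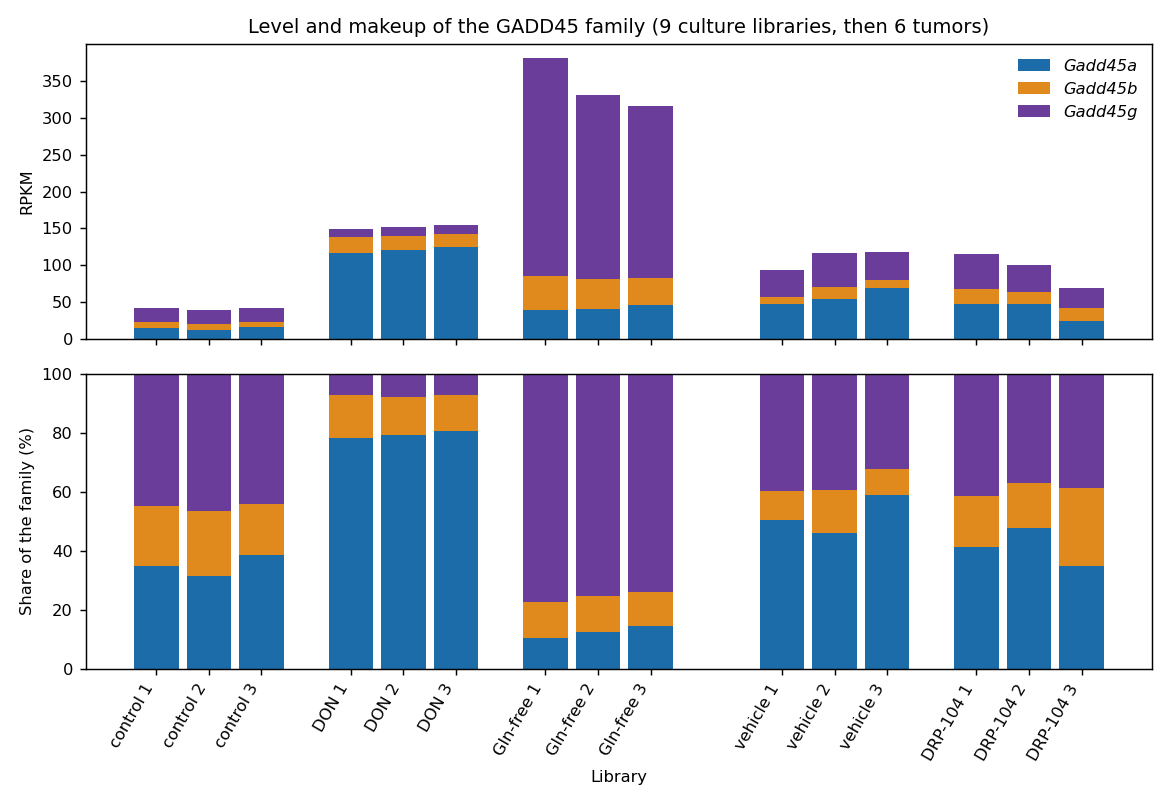
Length-normalized level (top, RPKM) and share in percent (bottom) of each GADD45 gene in the 9 culture and 6 tumor libraries, stacked by gene. Gadd45a takes 78.4% to 80.6% of the family in DON cells and Gadd45g takes 73.9% to 77.4% in Gln-free cells, while in the 6 tumors of the normalized count table Gadd45a takes 34.7% to 59.0%; in the separate FPKM table of tumors, not drawn, it takes 7.73% to 27.2%.

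Across all 5 groups, Gadd45a ran from control cells (12.3 to 16.5 RPKM) through DRP-104 tumors (23.9 to 47.9), Gln-free cells (39.3 to 46.0) and vehicle tumors (47.6 to 69.7) to DON cells (117 to 124). DRP-104 tumors overlapped with both Gln-free cells and vehicle tumors. Gadd45b ran from control cells (7.28 to 8.64 RPKM) through vehicle tumors (9.38 to 16.9), DRP-104 tumors (15.4 to 20.2) and DON cells (18.5 to 21.4) to Gln-free cells (36.5 to 46.7). Here vehicle and DRP-104 tumors overlapped, as did DRP-104 tumors and DON cells. Gadd45g ran from DON cells (10.99 to 12.2 RPKM) through control cells (18.2 to 19.1), DRP-104 tumors (26.8 to 47.8) and vehicle tumors (37.4 to 46.1) to Gln-free cells (234 to 295), with only the tumor groups overlapping. Cultures and tumors differ in more than treatment, so their order is a description.

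The members also had different companions. Over the 9 culture libraries, the logged level of Gadd45a had a Pearson r of 0.48 with Gadd45b and -0.20 with Gadd45g, and Gadd45b had an r of 0.75 with Gadd45g. Among 10431 genes with a mean of at least 100 counts, the 5 genes most like Gadd45a were Tbc1d24, Slc2a4rg-ps, Rragd, 1110002L01Rik and Cth, with r from 0.994 to 0.998. Cth, the enzyme that releases cysteine from cystathionine, had mean jointly scaled counts of 803 in control, 6670 in DON and 2440 in Gln-free cells, and Rragd, a Rag GTPase of mTORC1 nutrient sensing, had 209.7, 1833 and 606.

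Gadd45b was most like Slc35b1, Yrdc, Ube2g2, Ccdc137 and Mafk (r from 0.994 to 0.997). Mafk, a small Maf transcription factor, had mean counts of 1494 in control, 2637 in DON and 4728 in Gln-free cells. Gadd45g was most like Rfk, Epha2, Emp1, Slc14a1 and Per2 (r from 0.995 to 0.997). Rfk, the closest in r, had mean counts of 3228 in control, 2995 in DON and 4611 in Gln-free cells. For Emp1 the means were 32365, 29355 and 59499. Pearson r takes no account of the size of a difference. The ephrin receptor gene Epha2 had 13326 in control, 9634 in DON and 39052 in Gln-free cells, the urea transporter gene Slc14a1 had 2408, 1697 and 11344, and the clock gene Per2 had 333, 275 and 1062. These correlations follow 3 groups and share libraries, so they describe the shape of the pattern and carry no p.

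The genes around the family were then read from lists of known partners and pathways, each gene tested with limma among all genes. Of 12 binding partners, 4 were higher and 6 lower in DON cells than in control, and 4 were higher and 5 lower in Gln-free cells. Over all genes, 33.3% were called higher and 34.7% lower with DON, and 34.5% higher and 34.9% lower without Gln. The median log2 difference of the partners was -0.12 with DON and -0.09 without Gln, beside 0.02 and 0.01 over all genes. Map3k4, the kinase that GADD45 proteins activate, fell from 1814 ± 142 to 873 ± 39.8 normalized counts with DON (log2 difference -1.05, limma adjusted p = 5.12e-07) and from 1723 ± 124 to 666 ± 44.7 without Gln (-1.37, limma adjusted p = 1.08e-07). It was slightly higher in DON than in Gln-free cells (0.35, limma adjusted p = 0.00439).

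Cdkn1a, which encodes the GADD45 partner p21, rose from 1080 ± 72.4 to 2009 ± 110.1 with DON (0.90, limma adjusted p = 2.0e-06) and from 1026 ± 56.7 to 2823 ± 165 without Gln (1.46, limma adjusted p = 2.45e-08). It was lower in DON than in Gln-free cells (-0.53, limma adjusted p = 5.1e-05). Between DON and Gln-free cells the partners that parted most were Ccnb1, encoding cyclin B1 (-0.94, limma adjusted p = 1.46e-06), and Map2k7, encoding the kinase MKK7 bound by GADD45B (0.54, limma adjusted p = 2.97e-05). Gadd45gip1, a mitochondrial protein gene named for binding GADD45G, rose by 0.51 with DON (limma adjusted p = 0.00292) and 0.32 without Gln (limma adjusted p = 0.0391). Its DON and Gln-free means, 606 ± 14.4 and 522 ± 40.5 jointly scaled counts, differed by 0.22 (limma adjusted p = 0.112).

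Of the kinases of the p38 and JNK pathways, 17 of 18 could be tested. With DON, 3 were higher and 10 lower (median -0.46), and without Gln 2 were higher and 6 lower (median -0.14). Of all genes, 33.3% were called higher and 34.7% lower with DON, and 34.5% and 34.9% without Gln. Between DON and Gln-free cells, 7 were higher and 8 lower, where 31.2% of all genes were called higher and 32.4% lower. The p38 activators Map2k6 and Map2k3 were both lower in DON than in Gln-free cells, by -1.06 (limma adjusted p = 5.77e-06) and -0.83 (limma adjusted p = 8.28e-07). Activity of these kinases is not measured by RNA.

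For the p53 pathway, upstream of Gadd45a, Trp53 itself rose from 213 ± 8.37 to 484 ± 50.7 normalized counts with DON (1.18, limma adjusted p = 4.9e-06) and from 202 ± 5.80 to 449 ± 21.5 without Gln (1.15, limma adjusted p = 4.82e-06). Between DON and Gln-free cells it differed by 0.06 (limma adjusted p = 0.668). Mdm2, the p53 target that targets p53 for destruction, rose by 1.17 and 1.18 (limma adjusted p = 4.3e-07 and 1.13e-06), with a DON minus Gln-free difference of 0.02 (limma adjusted p = 0.857). Of 22 p53 target genes tested, 12 were higher and 7 lower with DON and 11 were higher and 9 lower without Gln. The shares of all genes were 33.3% higher and 34.7% lower with DON, and 34.5% and 34.9% without Gln. In DON against Gln-free cells, 4 of the 22 were higher and 8 lower with a median of -0.01, where 31.2% of all genes were higher and 32.4% lower. The most different were Btg2, an antiproliferative gene (-2.26, limma adjusted p = 1.53e-08), and Plk2, a polo-like kinase gene (-1.07, limma adjusted p = 1.28e-06). The labels give p53 as mutant in this line.

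The ATF4 and CHOP genes, the integrated stress response arm known to reach Gadd45a, were mostly higher in both treatments. With DON 17 of 18 were higher and 1 lower (median log2 difference 1.83), against 33.3% of all genes higher and 34.7% lower. Without Gln 16 were higher and 1 lower (median 1.33), against 34.5% and 34.9%. In each case the lower gene was Ddit4, an inhibitor of mTORC1, which is also in the p53 list. Atf4 rose from 8846 ± 647 to 28037 ± 350 normalized counts with DON (1.67, limma adjusted p = 1.32e-09) and from 8404 ± 539 to 21421 ± 1364 without Gln (1.35, limma adjusted p = 2.81e-08). Ddit3, which encodes CHOP, rose by 4.64 with DON (limma adjusted p = 1.96e-12) and 4.48 without Gln (limma adjusted p = 7.42e-12). Between DON and Gln-free cells Ddit3 differed by 0.19 (limma adjusted p = 0.0728), while Atf4 was higher with DON by 0.35 (limma adjusted p = 0.000901).

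Comparing DON with Gln-free cells directly, 10 of the 18 ATF4 and CHOP genes were higher and 3 lower, with a median of 0.30 beside -0.01 over all genes. Of all genes, 31.2% were called higher and 32.4% lower. The largest differences were in Chac1, a glutathione-degrading enzyme (1.40, limma adjusted p = 4.53e-08), and Ddit4 (1.00, limma adjusted p = 2.49e-05).

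The NF-kB and TGF-beta lists hold targets of the pathways known to act on Gadd45b. Of 14 NF-kB target genes tested between DON and Gln-free cells, 12 were lower with DON and 1 higher (median -1.06), against 32.4% of all genes called lower. The most different were Traf1 (-3.64, limma adjusted p = 1.79e-09) and Bcl3 (-2.30, limma adjusted p = 3.16e-09). Nfkbia, which encodes the NF-kB inhibitor IkB-alpha and is itself an NF-kB target, fell from 675 ± 20.9 to 446 ± 46.2 normalized counts with DON (-0.60, limma adjusted p = 0.000641) and rose from 641 ± 13.5 to 1290 ± 104.1 without Gln (1.01, limma adjusted p = 1.7e-06). Against control, 11 of 14 NF-kB targets were lower with DON and 2 higher (median -0.77), and without Gln 6 of 15 were higher and 4 lower (median 0.17). Of all genes, 33.3% were called higher and 34.7% lower with DON, and 34.5% and 34.9% without Gln. The part of NF-kB in the Gadd45b values was not tested. Bcl3 was lower than control in both treatments, by -3.41 with DON (limma adjusted p = 2.31e-10) and -1.08 without Gln (limma adjusted p = 5.49e-06).

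Of 9 TGF-beta target genes tested, 7 were lower in DON than in Gln-free cells and 1 higher (median -0.75). Of all genes, 32.4% were called lower and 31.2% higher. The receptor gene Tgfbr1 differed by -1.66 (limma adjusted p = 1.89e-07). Against control, 2 of the 9 were higher and 5 lower with DON (median -0.50), and 4 were higher and 4 lower without Gln (median -0.04). Of all genes, 33.3% were called higher and 34.7% lower with DON, and 34.5% and 34.9% without Gln. The part of TGF-beta signaling in the Gadd45b values was not tested.

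DNA demethylation and repair genes, a process in which GADD45 proteins act as adaptors, showed no common direction. With DON 5 of 12 were higher and 3 lower, without Gln 4 were higher and 4 lower, and between DON and Gln-free cells 3 of 11 were higher and 3 lower, Xrcc1 (1.23, limma adjusted p = 1.16e-08) and Neil1 (1.13, limma adjusted p = 4.78e-06) being the most different. The shares of all genes were 33.3% higher and 34.7% lower with DON, and 34.5% and 34.9% without Gln. Between DON and Gln-free cells they were 31.2% and 32.4%. All 11 G2/M genes, the cell cycle step that GADD45 proteins can block, were lower with DON (median -2.29) and without Gln (median -2.24). Between DON and Gln-free cells, 4 of the 11 were higher and 3 lower (median 0.00), led by Ccnb1 and the Aurora kinase gene Aurkb (0.84, limma adjusted p = 5.09e-05). Several genes sit in more than 1 list, Cdkn1a, Ccnb1 and Ddit4 among them, so the list counts are not separate.

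**Figure D4:**
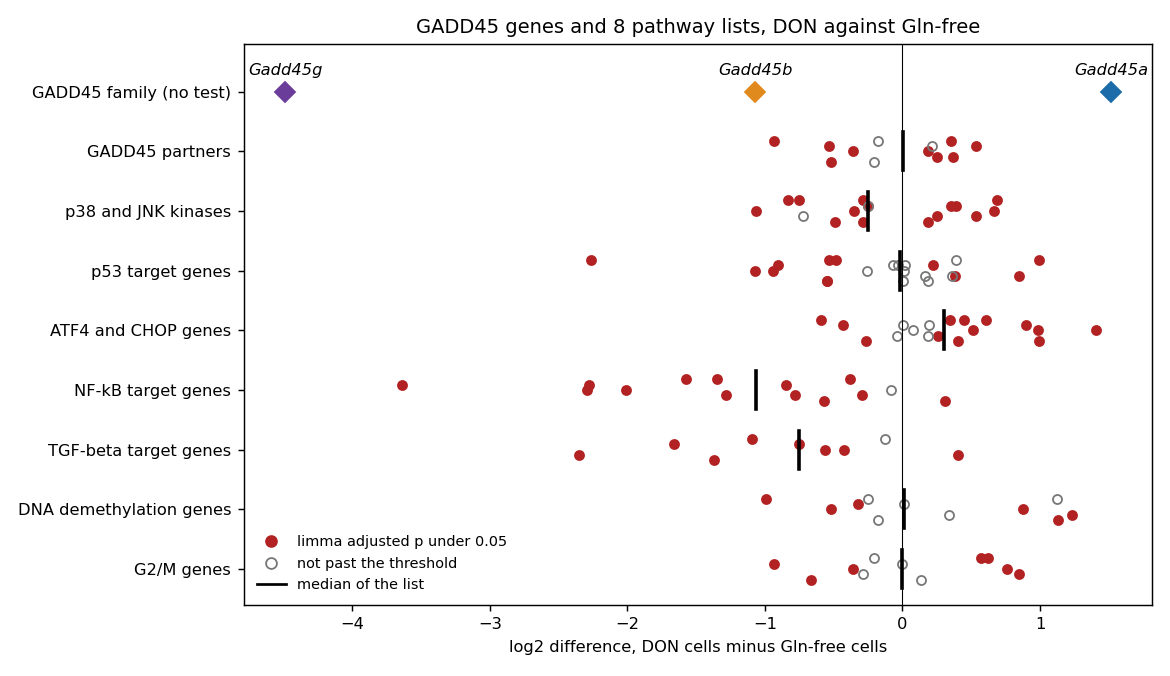
Log2 differences between DON and Gln-free cells for the GADD45 genes (diamonds, no test) and for the genes of 8 lists (points, filled where limma adjusted p is under 0.05), with each list's median as a bar. The NF-kB list has a median of -1.06, the TGF-beta list -0.75 and the ATF4 and CHOP list 0.30, and the members stand at 1.52, -1.07 and -4.49.

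In tumors, where the 3 genes could be tested, none differed past the threshold between DRP-104 and vehicle. Gadd45a had 1047, 1265 and 1613 normalized counts in vehicle tumors and 1152, 1104 and 531 in DRP-104 tumors. Only the third DRP-104 tumor was below all vehicle tumors. The means of 1309 ± 285 and 929.0 ± 345 (SD, n = 3) differed by -0.55 (SE 0.31, 95% interval -1.27 to 0.16, limma adjusted p = 0.916), with an exact two-sided permutation p of 0.3, where 3 against 3 tumors can reach no less than 0.1.

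Gadd45b had 214, 410 and 248 normalized counts in vehicle tumors and 507, 367 and 420 in DRP-104 tumors. It was higher in DRP-104 tumors on average, 431 ± 70.7 against 291 ± 105, but 1 vehicle tumor lay within the DRP-104 range. The log2 difference was 0.61 (SE 0.27, 95% interval -0.02 to 1.24, limma adjusted p = 0.916) and the exact permutation p was 0.2.

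Gadd45g had 720, 948 and 771 normalized counts in vehicle tumors and 1013, 756 and 522 in DRP-104 tumors. The highest and the lowest tumor were both treated with DRP-104, and the log2 difference was -0.13 (SE 0.25, 95% interval -0.71 to 0.44, limma adjusted p = 0.957), with an exact permutation p of 0.9. The difference between cells and tumors was not tested. With the third DRP-104 tumor left out, the difference was 0.12 for Gadd45g (limma adjusted p = 0.950) and -0.19 for Gadd45a (limma adjusted p = 0.911).

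No gene at all passed limma in this comparison (0.0% of 15454 genes, 775 at an unadjusted p under 0.05). EdgeR likewise called 0 genes, with 863 at an unadjusted p under 0.05, and DESeq2 called 56, none of them in the 8 lists. Groups did not overlap for 10.6% of genes and for none of the GADD45 genes. None of the 8 lists had a called gene in tumors, and their medians ran from -0.20 for G2/M genes to 0.09 for ATF4 and CHOP genes.

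Length-normalized from these reads, Gadd45a led in vehicle tumors with 57.1 ± 11.4 RPKM, ahead of Gadd45g with 40.5 ± 4.88 and Gadd45b with 12.2 ± 4.08. In DRP-104 tumors, Gadd45a (39.8 ± 13.7 RPKM) and Gadd45g (37.3 ± 10.5) overlapped, and Gadd45b stood at 18.0 ± 2.44. The family summed to 109.8 ± 13.4 RPKM in vehicle and 95.1 ± 23.8 in DRP-104 tumors. As a share of the family, Gadd45b was 8.78% to 14.4% in vehicle and 15.3% to 26.5% in DRP-104 tumors, without overlap. The difference of 8.69 percentage points had an exact permutation p of 0.1, the smallest this design allows. The share of Gadd45a differed by -10.7 points (exact permutation p = 0.2) and that of Gadd45g by 2.03 points (exact permutation p = 0.7).

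A further table gives FPKM for DRP-104 and vehicle tumors, with columns that could not be matched to the tumors above. There Gadd45a had 22.0, 14.6 and 23.5 FPKM in vehicle and 14.4, 15.2 and 19.5 in DRP-104 columns (log2 difference -0.26, limma adjusted p = 0.646, exact permutation p = 0.3). Gadd45b had 11.8, 11.2 and 17.8 FPKM in vehicle and 31.6, 15.9 and 22.1 in DRP-104 columns, a log2 difference of 0.71 (SE 0.27, unadjusted 95% interval 0.07 to 1.34, limma adjusted p = 0.629, exact permutation p = 0.2). Gadd45b was again higher with DRP-104 on average, and the groups again overlapped.

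Gadd45g had 47.1, 31.3 and 56.9 FPKM in vehicle and 140, 54.2 and 53.6 in DRP-104 columns. A single DRP-104 column stood far above the rest, and the difference of 0.75 (SE 0.40, limma adjusted p = 0.630, exact permutation p = 0.3) had the opposite sign to that in normalized counts. No gene passed limma in this table (0.0% of 14183 genes, 1079 at an unadjusted p under 0.05), and the groups of 19.3% of genes did not overlap. In shares of the family, Gadd45a was lower in DRP-104 columns without overlap (7.73% to 20.5% against 23.9% to 27.2%, exact permutation p = 0.1), and Gadd45b was higher by 2.16 points with overlap (exact permutation p = 0.5). Gadd45g held 54.8% to 58.2% of the family in vehicle and 56.3% to 75.3% in DRP-104 columns (exact permutation p = 0.3). Gadd45g was thus the leading member in vehicle columns, at 45.1 ± 12.9 FPKM against 20.0 ± 4.77 for Gadd45a, whereas Gadd45a led in the vehicle tumors of the normalized count table.

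**Figure D5:**
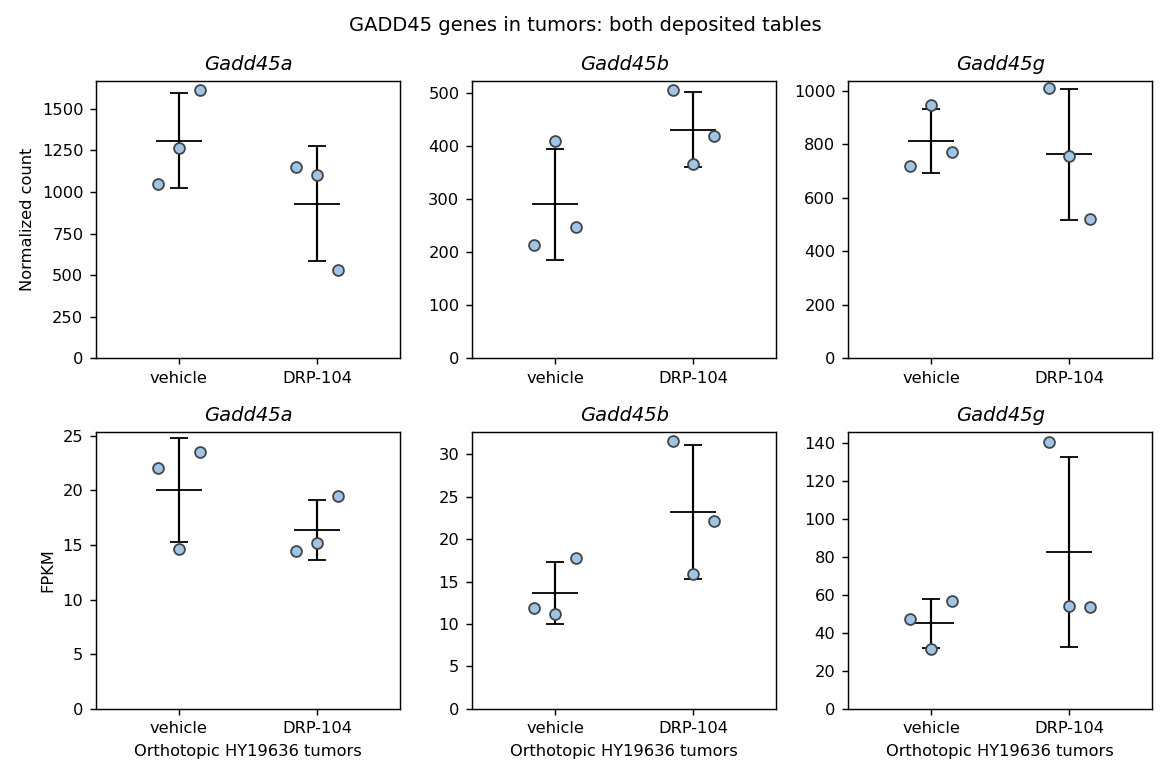
GADD45 genes in the tumors, as normalized counts (top) and as FPKM in the further table (bottom), from 0. Points are libraries or columns, and the bar and whiskers are the mean and SD of 3. Vehicle and DRP-104 overlap in all 6 panels.

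Markers of other cell types were summed in the same tumors, without a test. The 7 fibroblast markers summed to 39031 to 82817 normalized counts in vehicle and 18469 to 32268 in DRP-104 tumors, and the 5 endothelial markers to 1800 to 2046 and 1122 to 1560, both without overlap. T cell markers summed to 52.9 to 98.3 in vehicle tumors and 41.5 to 1306 in DRP-104 tumors, the high value being the third tumor, which also had the lowest Gadd45a and Gadd45g. Neutrophil markers summed to 75.1 to 487 in vehicle and 32.3 to 556 in DRP-104 tumors, with overlap. The third DRP-104 tumor also had the highest neutrophil (556) and epithelial (187225) sums of all tumors, and the lowest fibroblast (18469) and endothelial (1122) sums. Epithelial markers (127743 to 169501 in vehicle, 138736 to 187225 in DRP-104), macrophage markers (9008 to 11691 and 6336 to 12781) and acinar markers (166 to 3135 and 204 to 1080) overlapped. Islet hormones also overlapped in normalized counts (57.2 to 297 in vehicle, 162 to 718 in DRP-104). In the FPKM table they summed to 13.4 to 227 FPKM in vehicle and 312 to 1184 in DRP-104 columns, without overlap. Fibroblast markers there summed to 740 to 1215 and 1001 to 2958, the highest fibroblast sum and the highest Gadd45g being in the same column. Fibroblast markers were thus lower with DRP-104 in 1 table and overlapped in the other with a higher DRP-104 range, and endothelial markers overlapped in FPKM (34.1 to 43.2 and 38.3 to 49.2). The part of these cells in the GADD45 values was not tested.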

How the data were processed

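RNA was prepared by the authors from cells and tumors, and sequencing, HISAT2 alignment and DESeq2 testing were done at Novogene. The submitters' processing notes name GRCm39, CASAVA and STAR 2.5 as well, but 24919 of 34490 matched genes (72.2%) in the FPKM table had the coordinates of GENCODE M21 (GRCm38). The counting tool and the use of strand are not given in the sources used here. The deposited signal is a count per gene divided by 1 size factor per library, with a separate table for each comparison. The authors' FPKM values are scaled by gene length and library size, and other FPKM tables and a repeat of the tumor table were not used.

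Dividing by the worth of 1 read gave whole reads (tolerance 0.0051) for at least 99.989% of values. Controls held the same reads in both culture tables (55291 of 55291 genes). Even numbers made up 69.6% to 72.7% of values from 1 to 20 reads in culture and 41.9% to 46.5% in tumors. The cause was not tested, and a recovered read may be a different unit in culture and in tumors. RPKM used recovered reads and the FPKM table's gene lengths.

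Comparisons used limma 3.58.1 (trend) in R 4.3.3 on log2(value + 1) for genes with a mean of at least 10 (FPKM at least 0.5), with Benjamini-Hochberg adjustment over all genes tested and a threshold of 0.05. The fit of DON against Gln-free cells used reads scaled by median-of-ratios over 9 libraries. Exact permutation tests covered 20 arrangements. Differences are on the log2(value + 1) scale. The limma p-values set each difference against the spread between these libraries, which in culture may be technical. Scripts were tested on simulated reads with 200 changed genes. In culture, limma called 92% to 94% of 2-fold changes and 100% of 4-fold changes. In tumors it called 25% and 77%, so smaller changes there would mostly be missed. Unchanged genes made up 3.48% to 8.57% of the calls.

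Alternatives were edgeR 4.0.16 and DESeq2 1.42.0 on recovered reads, other pseudocounts and filters, quantile normalization, the FPKM table, a replicate block and leaving out each library. The members and lists were chosen with earlier results of these data known. Named genes were the 3 members, 8 regulators and partners, the 2 genes of each list that differed most between DON and Gln-free cells, and the 5 genes most like each member. Protein sequences were not used here. An allele of the line and a gene that the naming rule selects are not reported here.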

Additional observations from a re-analysis of the deposited data

How the results depend on the processing

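In culture, the direction of each GADD45 difference was the same under other pseudocounts, no filter, edgeR, DESeq2, quantile normalization and leaving out each library. Quantile normalization moved the median of all genes from 0.02 to 0.13 in DON against control, and there gave 3.06 for Gadd45a and -0.72 for Gadd45g, and 1.65 for Gadd45a in DON against Gln-free cells. In tumors, Gadd45g reversed to 0.75 in the FPKM table and to 0.12 without the third DRP-104 tumor (range -0.36 to 0.12 with each tumor left out), and the cause was not tested. Adjusted p-values in tumors ran from 0.646 to 1.00 for Gadd45a, 0.629 to 1.00 for Gadd45b and 0.630 to 1.00 for Gadd45g. DESeq2 called 56 genes in tumors, and leaving out a column of the FPKM table gave 0 to 1, the 1 without the first DRP-104 or the first vehicle column. All 64 list counts under edgeR and DESeq2 stayed within 1.5 times the main count.

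With a replicate block, 9237 genes were called between DON and Gln-free cells (8514 without it) and 0 in tumors. The numbers were not taken to pair the samples. Deviations of same-numbered libraries had correlations of -0.05, 0.01 and 0.26 in culture and -0.44, 0.05 and -0.46 in tumors. With 3 libraries in each group, these cannot exclude pairing. The block was not run against control cells, whose columns carry no sample of their own. The effect of depth on the tumor intervals was not tested.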
